A study of Mus musculus with 11 samples.

Results

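The 5-hydroxymethylcytosine (5hmC) landscape of mouse embryonic stem (ES) cells kept in 2i/Lif was described from the 3 day 0 libraries of the TET_WT line, of 11 libraries in the 5hmC series. TET_WT is the wild-type parent of a line that lacks Tet1, Tet2 and Tet3, so these cells carry intact Tet genes. The 2i/Lif medium combines inhibitors of MEK and GSK3 with the cytokine LIF. The members were the 3 libraries labelled ESC_D0, and no other group was compared with them. Values were read in 2 kb tiles of the mouse genome GRCm38, in 21182 of 21627 annotated protein-coding genes, and in classes of tiles.

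5hmC is made when TET enzymes oxidise 5-methylcytosine, which the DNA methyltransferases place mostly at CG dinucleotides. It is both an intermediate on the way to unmethylated cytosine and a stable mark in gene bodies and at regulatory elements. ES cells in 2i/Lif are known for low DNA methylation, and unmethylated CG islands offer TET enzymes no substrate. The capture used here (HMCP) enriches DNA fragments that carry 5hmC and reports a relative level per tile.

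Recovered reads numbered 51604034, 29831997 and 49410709 in replicates 1, 2 and 3, with medians of 13, 4 and 13 reads per tile. Replicate 2 was the shallowest, and 30.2% of its tiles had no read, against 15.6% and 13.1%. It also stood apart across genes: the Pearson correlation of gene values was 0.97 between replicates 1 and 3, and 0.94 between replicate 2 and either of them, over 21182 genes that share each library's depth. A tile without reads is held at -5.63, -4.84 and -5.56 log2 RPKM in replicates 1 to 3, so low values of replicate 2 are held at a higher floor. RPKM corrects a read number for tile length and for the size of the library. Nothing in the labels says that the 3 libraries came from separate cultures, and p-values cover only the spread between these libraries. Gene expression was not measured in these libraries, so the cell type could not be checked against its markers. No input library was used, and DNA copy number, mappability and 5hmC cannot be told apart in a level.

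The start sites of germ cell genes held some of the highest 5hmC signal of any gene starts, while many of the same genes were low over their span. The promoters of 3 such genes and of 2 pluripotency genes are shown because they set side by side CG-rich starts with very high and very low signal. Each run is the 250 bases before the start site on the gene's strand, from RefSeq on GRCm38.p6, with every CG dinucleotide in capitals.
Dazl, chr17:50293621-50293870, minus strand: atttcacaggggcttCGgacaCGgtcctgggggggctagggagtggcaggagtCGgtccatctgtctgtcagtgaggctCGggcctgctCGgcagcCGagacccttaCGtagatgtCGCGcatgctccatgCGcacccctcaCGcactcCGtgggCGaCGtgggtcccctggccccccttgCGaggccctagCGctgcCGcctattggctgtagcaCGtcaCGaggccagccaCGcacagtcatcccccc
Mael, chr1:166238745-166238994, minus strand: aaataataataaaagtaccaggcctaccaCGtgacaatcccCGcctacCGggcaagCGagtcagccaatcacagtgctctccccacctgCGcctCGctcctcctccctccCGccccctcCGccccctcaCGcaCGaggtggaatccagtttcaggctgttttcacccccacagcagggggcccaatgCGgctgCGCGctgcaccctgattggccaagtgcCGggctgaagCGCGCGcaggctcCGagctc
Sycp3, chr10:88459337-88459586, plus strand: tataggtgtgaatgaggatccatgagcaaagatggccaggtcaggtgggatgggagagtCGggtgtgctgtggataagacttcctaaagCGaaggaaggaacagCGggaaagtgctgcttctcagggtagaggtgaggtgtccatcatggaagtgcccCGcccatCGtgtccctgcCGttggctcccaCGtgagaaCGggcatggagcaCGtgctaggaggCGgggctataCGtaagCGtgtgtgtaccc
Sox2, chr3:34649745-34649994, plus strand: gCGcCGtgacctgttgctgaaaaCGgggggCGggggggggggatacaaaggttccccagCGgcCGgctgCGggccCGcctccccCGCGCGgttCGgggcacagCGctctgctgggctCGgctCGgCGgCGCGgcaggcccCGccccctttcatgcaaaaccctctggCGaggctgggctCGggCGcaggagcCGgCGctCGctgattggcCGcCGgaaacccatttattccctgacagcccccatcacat
Klf4, chr4:55532476-55532725, minus strand: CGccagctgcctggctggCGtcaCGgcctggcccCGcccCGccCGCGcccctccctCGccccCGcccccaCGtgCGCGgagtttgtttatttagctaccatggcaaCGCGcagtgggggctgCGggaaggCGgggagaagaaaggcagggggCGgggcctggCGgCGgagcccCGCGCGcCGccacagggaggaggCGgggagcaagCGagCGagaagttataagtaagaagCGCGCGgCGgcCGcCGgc
The 250 bases hold 20 CG in Dazl, 18 in Mael, 12 in Sycp3, 27 in Sox2 and 32 in Klf4. At least 1 CG, read on either strand since CG is its own complement, stood in 95.1% of the 300-base promoters of 16981 measured genes, which reach 50 bases past the start, and the median promoter held 14.

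Dazl encodes an RNA-binding protein of germ cells. Its start-site tile, chr17:50292001-50294000, read 4.59, 4.83 and 4.54 log2 RPKM in replicates 1, 2 and 3, from 1069, 729 and 990 reads. Over the Dazl gene and 2 kb on both sides the mean was -3.41, -4.06 and -3.33. That gene value leaves out the 0.1% of tiles with the highest means, 2 of which lie in Dazl, and with them it was -1.88, -2.35 and -1.82. The start of Dazl thus stood at the top of the range in every library while the gene lay below the median gene, at -0.33, -0.45 and -0.30, by either measure.

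Mael, a factor of the piRNA pathway that silences transposons in germ cells, had 3.39, 3.62 and 3.12 log2 RPKM in its start-site tile and a gene value of -1.97, -2.72 and -1.83. Sycp3, a component of the synaptonemal complex that joins chromosomes in meiosis, had 2.58, 2.66 and 2.75 at its start and a gene value of -1.16, -1.91 and -0.42. For both genes every library had the start above the gene value, with no overlap.

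Sox2, a core pluripotency factor, showed the opposite arrangement of CG and signal. Its start-site tile held 1, 4 and 1 reads, or -5.47, -2.68 and -5.41 log2 RPKM, close to an empty tile in replicates 1 and 3. Klf4, a naive pluripotency factor, held 6, 1 and 11 reads in its start-site tile, or -2.89, -4.68 and -1.95 log2 RPKM. At 1 to 11 reads a tile these values carry a large counting error.

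The germline and meiosis list has 24 genes, of which 20 have a start site in the RefSeq table. Of these, 16 (80% of the 20) had a start-site tile among the highest 5% of all start-site tiles in every library, against 3.74% of 16902 genes. The limits of the highest 5% were 1.68, 1.87 and 1.63 log2 RPKM in replicates 1, 2 and 3. All 16 have at least 10 CG in the promoter, where the share over all genes was 2.07%. With replicates 1 and 3 only, 17 of the 20 starts passed, against 4.17% of all genes. The list was written with earlier results of these data known, and its start sites were examined after other results had been seen.

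**Figure D1:**
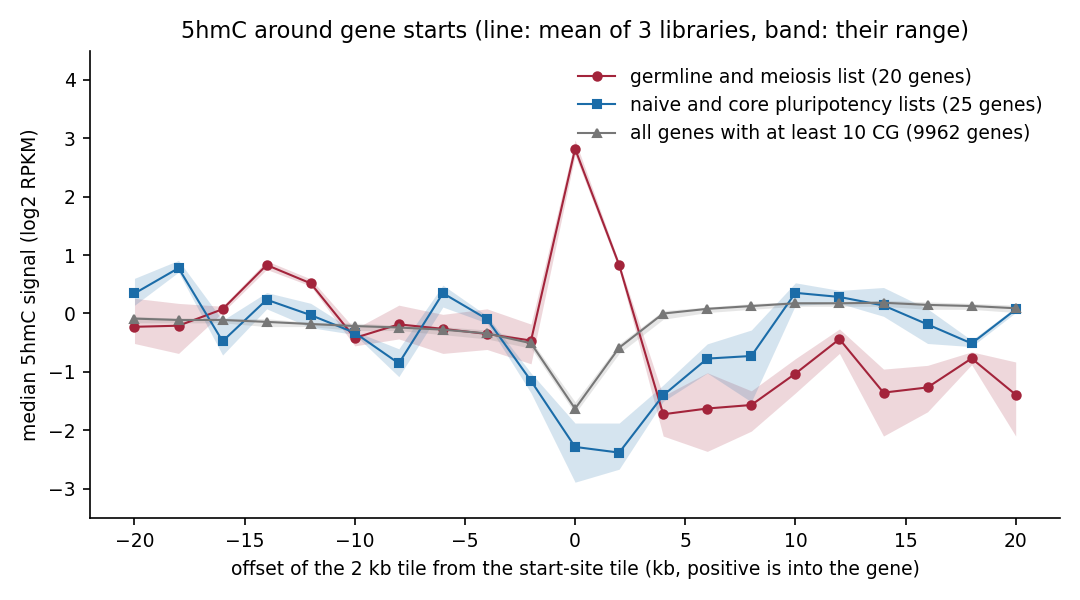
Median 5hmC signal (log2 RPKM) in the 2 kb tiles from 20 kb before to 20 kb after the start-site tile, for 20 germline and meiosis genes, 25 naive and core pluripotency genes and 9962 genes with at least 10 CG in the promoter. Lines are means of the 3 library medians and bands their range; the germline line peaks at 2.82 at the start and is -0.46 a tile before it, while both other lines dip there.

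The peak was narrow. Averaged over the 3 libraries, the median of the germline starts was 2.82 log2 RPKM in the start-site tile, -0.46 in the tile before it, 0.83 in the tile after it and -1.73 in the next. For the pluripotency genes the same 4 positions read -2.29, -1.15, -2.38 and -1.40. For the 9962 genes with at least 10 CG they read -1.63, -0.51, -0.59 and 0.00. In 19 of the 20 germline genes the start-site tile exceeded the gene's own value, as it did in 33.6% of all genes with a start site. With no tile left out the count was 20 of 20. The change was Rhox5, whose gene value fell from -1.36 to -4.55 when tiles unread in every library were included.

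Genes of the list that act in the piRNA pathway or in germ granules are given first, picked within the list after values were seen. Mov10l1, an RNA helicase of piRNA production, had 3.72, 4.31 and 3.85 log2 RPKM at its start. Asz1 had 3.55, 3.74 and 3.48, and Tdrd9 had 3.30, 3.42 and 3.36. Tdrd1 had 2.70, 2.84 and 2.50, and Ddx4, the germ cell helicase Vasa, had 2.41, 2.56 and 2.19. Piwil4 read 1.36, 1.54 and 1.22, below the limit in each library.

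Among the meiosis genes, Sycp1 read 2.80, 2.99 and 2.80 log2 RPKM at its start and Sycp2, of the same complex, 2.66, 2.54 and 1.92. Hormad1, which marks unsynapsed chromosome axes, read 2.32, 2.66 and 2.27. Stra8, which acts at the entry into meiosis, read 3.50, 3.18 and 3.34, and its whole gene was also high at 1.82, 2.09 and 1.81. Slc25a31, an ADP/ATP carrier of the testis, read 4.20, 4.40 and 4.14 at its start against a gene value of -2.18, -3.11 and -1.99, or -1.65, -2.49 and -1.48 with no tile left out. All of these stood in the highest 5% in each library.

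Taf7l, a testis form of a TFIID subunit, lies on the X chromosome, where 5hmC was low. Its start-site tile still read 2.38, 2.95 and 2.33 log2 RPKM, against -3.01, -3.06 and -2.21 over the gene. The starts outside the highest 5% in every library were those of Stk31, which missed in replicate 2 alone with 2.25, 1.62 and 2.12, Piwil4, Zp3 and Rhox5. Zp3, an egg coat protein, read 0.68, 1.10 and 0.89, and Rhox5, a homeobox gene on X, read -1.77, -1.68 and -1.51. Zp3 and Rhox5 have 7 and 5 CG in the promoter, the fewest of the list.

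Over their whole spans the germline genes did not stand high. Compared with the median gene of each library by limma across all genes (Benjamini-Hochberg adjusted p under 0.05), 8 of 24 were above and 13 below, against 39.5% above and 38.9% below of all 21182 genes. Of the 16 genes with the highest starts, 10 were called below, 4 above and 2 neither. Dazl stood at -3.24 against the median gene on the log2 scale. The counts for the list were also 8 and 13 without replicate 2, when 41.4% of all genes were above and 40.5% below, and with no tile left out.

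Other genes with CG-rich promoters and very high start-site tiles were picked by value and are given as a description. Among genes with at least 10 CG, the start tile of Trim52 was first, at 5.48, 5.75 and 5.60 log2 RPKM, while its gene value, which leaves such tiles out, averaged -1.34. Sohlh2, a transcription factor of spermatogonia and oocytes, read 4.16, 4.38 and 4.24. Fkbp6, required in meiosis, read 3.44, 3.86 and 3.68. Of the 30 highest, 7 were members of the germline list, which holds 18 of the 9962 starts with at least 10 CG. Btbd18 and Ctnnd1 share 1 tile, at 4.03, 4.40 and 3.96, so their signals cannot be told apart.

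**Figure D2:**
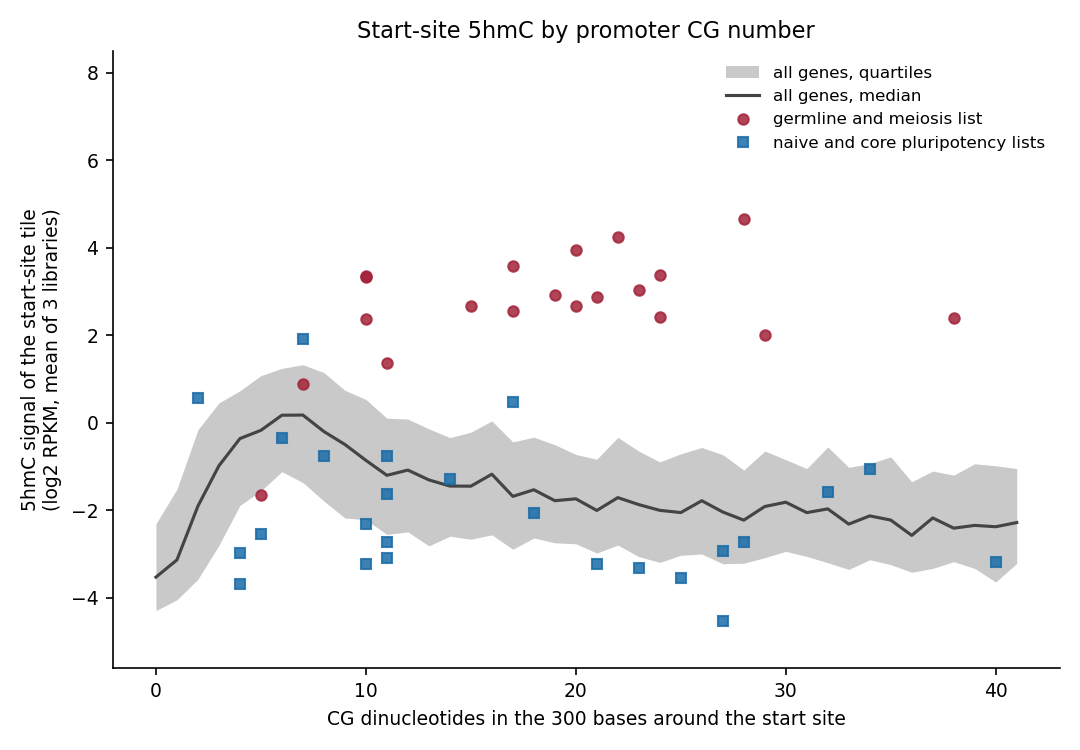
Start-site 5hmC (log2 RPKM, mean of 3 libraries) against the number of CG in the 300 bases around the start. The line and band are the median and quartiles of all genes with each CG number, and the points are the genes of the germline and meiosis list (red) and of the naive and core pluripotency lists (blue); germline points lie above the band at 10 or more CG, where most blue points lie within or below it.

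Across all 16902 starts, signal was highest at an intermediate CG number. The median start-site tile was -3.53 log2 RPKM with 0 CG, 0.17 with 6 CG, 0.18 with 7 CG, -0.86 with 10 CG and -2.38 with 40 CG. Differences between CG classes were taken over another set, 18098 start-site tiles without the highest 0.1% of tiles. In the 3 libraries, starts with 3 to 10 CG exceeded those with 0 to 2 CG by 1.80, 2.17 and 1.69 (1.89 ± 0.25, SD, n = 3). They exceeded starts with over 20 CG by 1.47, 1.25 and 1.50 (1.41 ± 0.14, SD, n = 3). Both differences had 1 sign in 3 of 3 libraries, and the exact sign-flip permutation test, two-sided, gave p = 0.25, the smallest that 3 libraries allow. With no tile left out the differences averaged 1.92 and 1.30.

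The whole gene followed CG number in another way. Split into 5 classes by promoter CG (0 to 3, 4 to 9, 10 to 18, 19 to 27, 28 to 65), start-site tiles had medians of -2.61, -0.16, -1.33, -1.89 and -2.23 log2 RPKM. Gene values had medians of -2.70, -0.28, -0.12, -0.03 and -0.11. Genes with few CG in the promoter were low both at the start and over the span, whereas CG-rich genes were low at the start alone. The starts include those of 940 olfactory and 245 vomeronasal receptors, both with a median of 1 CG. Over the span these lists had medians of -3.60 and -3.75, and the CG classes were not repeated without them. Over the 16902 genes, which share 3 libraries, Pearson's r with CG number was -0.10 for the start-site tile, 0.37 for the gene value and -0.45 for the start minus the gene value.

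The dip at the start and a rise towards the end marked the average gene. Along 7545 autosomal genes of at least 20 kb, the first 5% of the body averaged -1.30, -1.63 and -1.23 log2 RPKM. The middle of the body averaged -0.87, -1.35 and -0.79, and the last 5% -0.20, -0.50 and -0.15. The first 2 kb beyond the gene end was the highest position, at -0.16, -0.36 and -0.10. All 3 libraries had this shape, and replicate 2 lay below the others at every position.

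**Figure D3:**
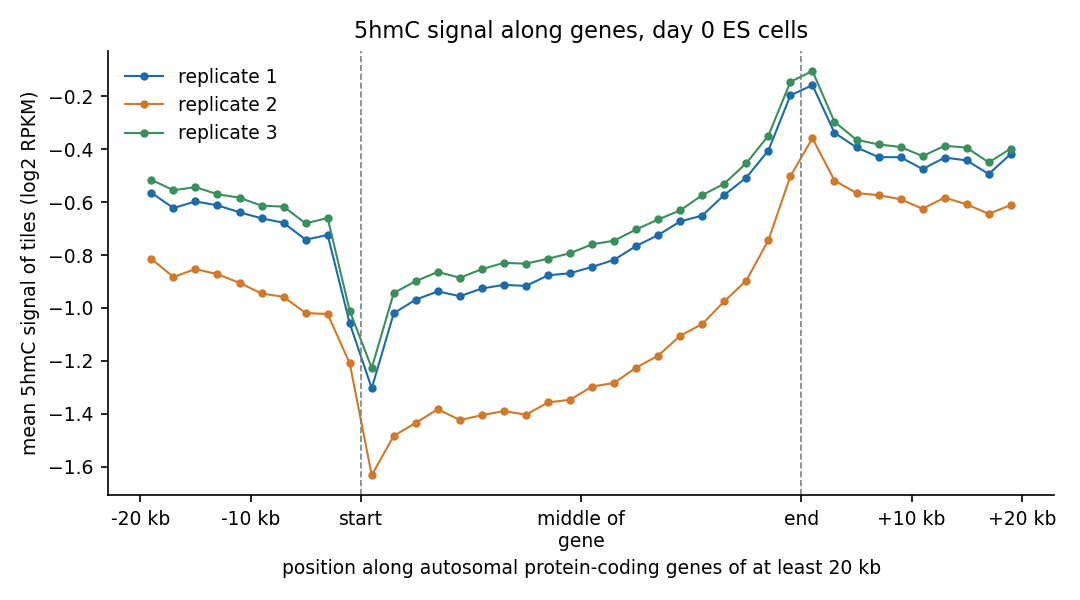
Mean 5hmC signal (log2 RPKM) along 7545 autosomal protein-coding genes of at least 20 kb, from 20 kb before the start to 20 kb past the end, with the body in 20 equal parts; long genes give more tiles to each part of the body. Each line is 1 library, and each falls at the start and rises through the body to a peak just past the gene end (-0.16, -0.36 and -0.10).

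The start-site tile was lower than tiles 4 to 20 kb into the body in each library, with differences of -1.16, -0.81 and -1.13 on the log2 scale and a mean of -1.03 ± 0.19 (SD, n = 3; exact sign-flip permutation test, two-sided, p = 0.25). Without replicate 2 the mean was -1.14. Genes of 10 to 30 kb and of 30 to 100 kb had the highest medians, -0.08 and -0.13. Genes under 10 kb had a median of -0.90, and genes over 300 kb one of -1.87. On autosomes and without olfactory and vomeronasal receptors, the same medians were -0.37 under 10 kb, -0.02 at 10 to 30 kb and -1.74 over 300 kb.

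The highest genes, named by a fixed rule on the mean of the 3 libraries, included Cit and Cmip, with 82 and 97 tiles, among mostly shorter genes. Hsbp1, which binds heat shock factor 1, had 2.56, 2.91 and 2.35 log2 RPKM. Cyba, a subunit of the phagocyte NADPH oxidase, had 2.4, 2.86 and 2.44. Npepl1 had 2.36, 2.73 and 2.31. Tat, the liver enzyme tyrosine aminotransferase, had 2.46, 2.51 and 2.43, the closest agreement of these 4 genes. In each of them replicate 2 was the highest library.

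The promoter of Tat is shown because it is a CG-poor start within one of the highest genes. Beside it is that of Samt2, the lowest gene under the naming rule. Both are 250 bases before the start, from RefSeq on GRCm38.p6, with CG in capitals.
Tat, chr8:109990186-109990435, plus strand: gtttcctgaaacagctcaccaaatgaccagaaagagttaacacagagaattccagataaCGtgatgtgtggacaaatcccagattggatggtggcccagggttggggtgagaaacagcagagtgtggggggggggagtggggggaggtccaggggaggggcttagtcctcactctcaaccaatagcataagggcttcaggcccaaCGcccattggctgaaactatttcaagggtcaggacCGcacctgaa
Samt2, chrX:154579331-154579580, minus strand: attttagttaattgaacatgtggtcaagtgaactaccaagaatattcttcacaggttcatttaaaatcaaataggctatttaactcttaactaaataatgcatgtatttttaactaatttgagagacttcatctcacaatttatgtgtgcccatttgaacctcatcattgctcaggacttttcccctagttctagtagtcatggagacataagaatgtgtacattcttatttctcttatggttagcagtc
Tat shows 3 CG in these bases and Samt2 none. The start-site tile of Tat read 2.52, 2.61 and 2.79 log2 RPKM from 255, 157 and 295 reads. That of Samt2 held 1, 0 and 0 reads. The tile is 2 kb, and the sequence of the rest of it was not used here.

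Below them came Ipo4, an importin (2.38 ± 0.26, SD, n = 3), Cyren (2.36 ± 0.21), Mfap4 of the extracellular matrix (2.36 ± 0.18) and the receptor Gpr18 (2.27 ± 0.16). They were followed by Aebp1 (2.25), Gpr180 (2.25), Tecpr1 of autophagy (2.24), Cit, the citron kinase of cytokinesis (2.23), Cmip (2.21) and Fanca of the Fanconi anaemia pathway (2.20). Of the 14 high genes named here, 5 lie on chromosome 8 and 3 on chromosome 14. Neighbours in this order mostly differ by less than the SD of their libraries. The exception is Tat (2.46 ± 0.04, SD, n = 3), which differs from Ipo4 by more than its own SD. Of the 212 genes in the highest 1% of a library, 131 were shared by all 3 libraries.

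**Figure D4:**
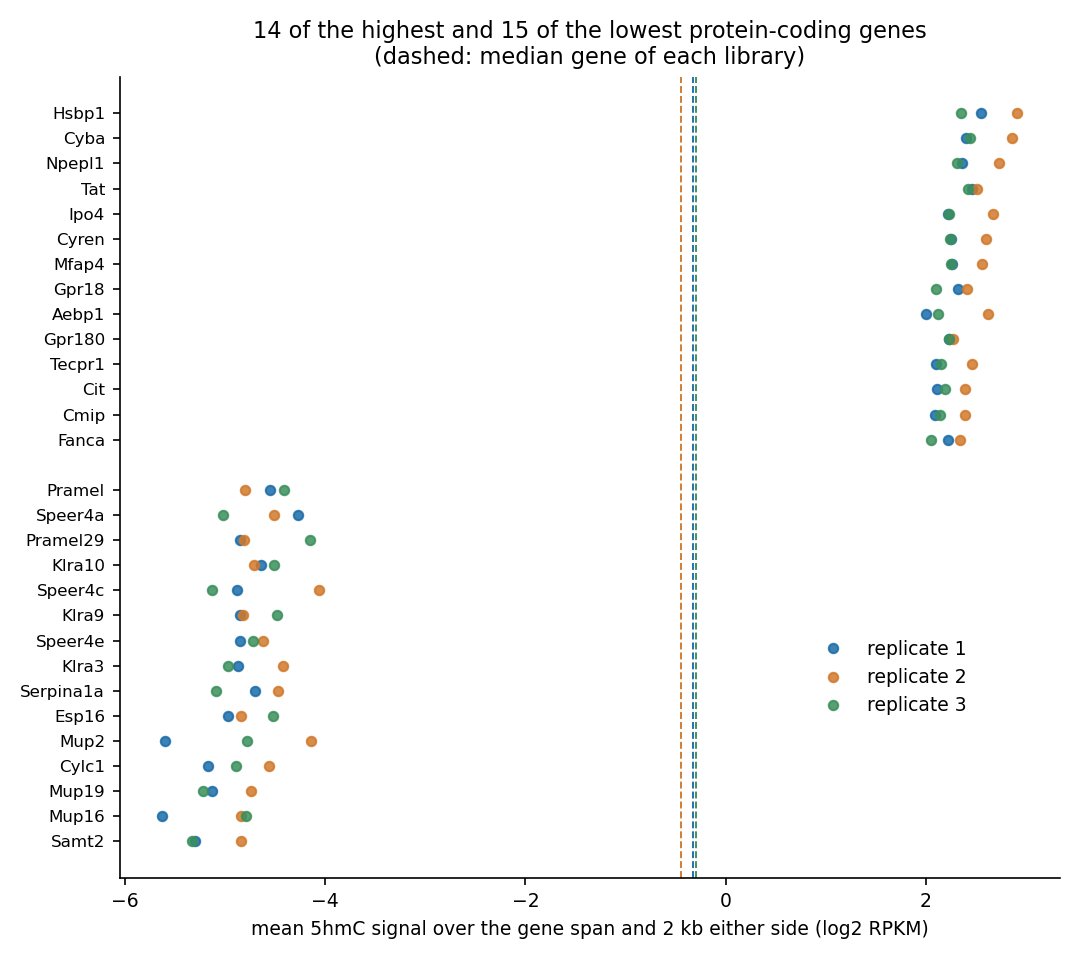
5hmC signal (log2 RPKM, mean over the gene span and 2 kb either side) of 14 of the 15 highest and of the 15 lowest protein-coding genes under the rule, 1 point per library, with dashed lines at the median gene of each library. The highest genes lie between 2.00 and 2.91 and the lowest at -4.07 or below in every library.

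The lowest genes under the same rule were mostly members of multi-copy gene families, and their values lay near that of an empty tile. How well reads can be placed in such genes was not tested. Samt2 on X had -5.30, -4.84 and -5.33 log2 RPKM. Mup16, Mup19 and Mup2, major urinary proteins, averaged -5.08, -5.03 and -4.84. Klra3, Klra9 and Klra10, natural killer cell receptors, averaged -4.75, -4.72 and -4.62. Cylc1 of the sperm head on X (-4.87), Esp16, a secreted peptide (-4.78), Serpina1a, an alpha-1 antitrypsin (-4.76), and the genes Speer4e, Speer4c, Speer4a, Pramel29 and Pramel, between -4.73 and -4.59, made up the rest. At this floor the order has no meaning, and of the 212 genes in the lowest 1% of a library 24 were shared by all 3.

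Long genes, with at least 50 tiles, gave extremes that rest on many reads. Cit (2.11, 2.39 and 2.19 log2 RPKM over 82 tiles) and Cmip (2.09, 2.39 and 2.14 over 97 tiles) led. Wwc2 (2.17), Dnah17, an axonemal dynein (2.16), Mical3 (1.98), Zfp827 (1.89), Atp9a (1.86) and Tiam1, an activator of Rac (1.81), followed. The start-site tiles of Cit and Cmip averaged -1.60 and -1.58, far below their own gene values and near the median of all start sites (-1.47, -1.51 and -1.51). Those of Wwc2 (-2.06), Mical3 (-1.10) and Zfp827 (-3.05) were also far below their gene values. The starts of Dnah17 (1.25) and Atp9a (0.51) lay below their gene values but above the median start. For Tiam1 the start (2.76) exceeded the gene value.

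All 8 of the lowest long genes lie on X. Il1rapl1, a synaptic adhesion protein, had -4.60, -4.59 and -4.44 log2 RPKM over 666 tiles. The glycine receptor subunit Glra2 (-4.50), Aff2 (-4.49), Tex16 (-4.49), Pcdh11x (-4.49), Cfap47 (-4.45), Dach2 (-4.41) and Mageb18 (-4.38) followed. In all 3 libraries these genes lay not far above an empty tile. On autosomes, chosen after values were seen, Cdh7 (-4.02), Cntnap5b (-4.0), Dpp10 (-3.95), Lrrc4c (-3.94), A26c3 (-3.94), Mgat4c (-3.93), Cntnap5a (-3.93) and Zfp804a (-3.92) were the lowest.

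Genes that encode the methylation and oxidation machinery were spread over the whole range. Of 24 listed genes, 10 were above and 8 below the median gene, close to the shares over all genes. Dnmt1, which copies methylation after replication, was the highest with 1.34, 1.66 and 1.33 log2 RPKM (1.80 ± 0.15, SE, above the median gene, limma adjusted p = 1.4e-06). The de novo enzymes Dnmt3a (0.69, 1.12 and 0.80) and Dnmt3b (0.62, 0.95 and 0.66) were above it too. All libraries of these 3 genes lay above the median gene.

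The 3 TET genes fell on different sides. Tet3 read 1.0, 1.20 and 0.96 log2 RPKM and was above the median gene by 1.41 ± 0.13 (SE, limma adjusted p = 2.8e-06). Tet1 read -0.13, -0.36 and -0.06 and was not called, with 0.17 ± 0.14 (SE, adjusted p = 0.28). Tet2 read -1.65, -2.06 and -1.47 and was below by 1.37 (difference -1.37 ± 0.26, SE, adjusted p = 0.00059). Against the median tile, a lower reference than the median gene, Tet2 was not called (-0.06, adjusted p = 0.76). With 20 kb instead of 2 kb of flank Tet1 was below the median gene (-0.31). Cxxc4, which binds unmethylated CG, was the lowest of the list at -3.15 ± 1.06 (SD, n = 3), with replicate 2 at -4.35.

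The genes of the pluripotency network were low more often than high. In the naive list 13 of 22 were below the median gene and 4 above, and in the core list 9 of 15 were below and 3 above; 38.9% and 39.5% of all genes were below and above. Sox2 had -4.0, -3.91 and -4.59 log2 RPKM over its span, and Pou5f1, which encodes OCT4, -2.73, -1.74 and -2.89. Nanog had -2.55, -1.53 and -2.11, Klf4 -2.57, -2.56 and -2.38, and Tbx3 -3.13, -2.87 and -2.48. All 5 were below the median gene in every library. These are short genes with 5 to 10 tiles. With 20 kb of flank Klf4 lay at 0.14 against the median gene, and Pou5f1 at -0.32 was no longer called, so the low values of these 2 hold for the narrow span alone. Against the median tile Nanog was not called (-0.40, limma adjusted p = 0.17). The lists moved with the flank too: the median of the core list stood at percentile 35.8 of all genes with 2 kb and 54.6 with 20 kb, and that of the naive list at 34.7 and 47.2.

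Exceptions among the pluripotency genes were Nr5a2, an orphan nuclear receptor (1.10, 0.89 and 1.02 log2 RPKM), and Tcf7l1, the TCF factor that opposes naive genes (1.28, 1.52 and 1.37). Both were above the median gene in each library. Dppa5a was the lowest of the naive list at -3.43, -3.00 and -4.08. The start-site tile of Esrrb was high for a gene of these lists, with 1.29, 2.23 and 2.19, while over the span Esrrb was not called (-0.39 on average).

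Of the signalling genes addressed by the medium, those of the MEK/ERK and WNT/GSK3 pathways lay above the median gene in larger numbers. Of 32 genes of the MEK/ERK and WNT/GSK3 pathways, 18 were above and 3 below, against 39.5% and 38.9% of all genes, with Lef1, a WNT-responsive transcription factor, at 1.36, 1.52 and 1.26 log2 RPKM. Of 12 genes of LIF and STAT3 signalling, 6 were above and 4 below, near the shares over all genes. Stat3 had 1.04, 1.32 and 1.11, and Lif itself was the highest at 1.24, 1.67 and 1.02. Pim3, a kinase gene induced by STAT3, was the lowest at -2.87, -1.92 and -3.36.

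Several but not all lists of later lineages were high. Among 24 genes of the mesoderm and primitive streak, 18 were above the median gene and 2 below, against 39.5% and 38.9% of all genes, with a list median of 0.47 log2 RPKM against -0.36 over all genes. Hand2, a heart and limb factor, was its highest with 1.82, 1.99 and 1.90, and Tbx20, a heart factor, its lowest at -1.39 ± 0.65 (SD, n = 3). In the trophectoderm list 13 of 20 were above and 5 below, led by Ets2 at 1.36. In the hematopoietic list 19 of 30 were above and 5 below (16 and 7 without replicate 2), from Etv6 at 1.75 to Ptprc, which encodes CD45, at -3.15. In the endoderm list 11 of 20 were above and 2 below. The neural list lay in the middle, with 9 of 24 above and 9 below and its median at percentile 50.5 of all genes (43.5 without replicate 2).

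**Figure D5:**
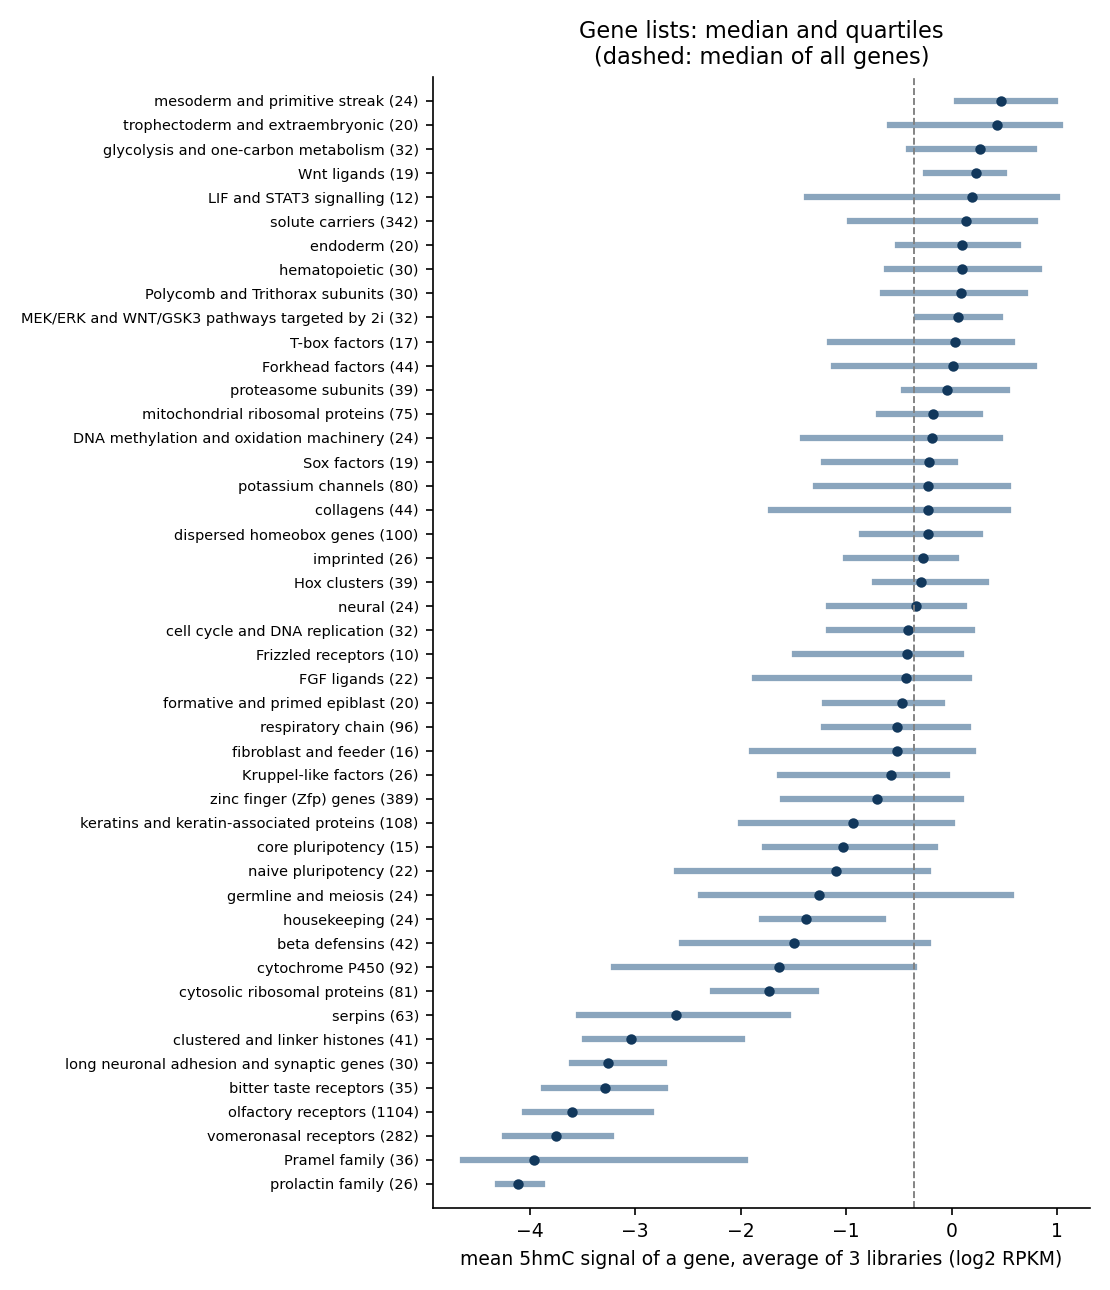
5hmC signal per gene (log2 RPKM, average of 3 libraries) in 46 gene lists; points are list medians, bars run from the lower to the upper quartile of the members, numbers in brackets are genes measured, and the dashed line is the median of all genes (-0.36). Mesoderm genes are at the top (0.47) and the prolactin family at the bottom (-4.11).

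Several gene families that lie in clusters and serve other tissues were low, against 38.9% below and 39.5% above of all genes. All 26 prolactin family genes were below the median gene, with a median of -4.11 log2 RPKM and the highest, Prl, at -2.53. Of 282 vomeronasal receptors 279 were below and 0 above (0 also without replicate 2). Of 1104 olfactory receptors 1057 were below and 21 above. Olfr750 was the highest of them with 2.29, 2.19 and 2.21. All 35 bitter taste receptors were below, as were 32 of 36 Pramel genes. Not every such family was as low. Of 108 keratins and keratin-associated proteins 27 were above and 58 below, with the median at percentile 37.6 of all genes, or 63.0 with no flank. Of 42 beta defensins 9 were above and 24 below. Read placement among similar copies was not tested.

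Long genes of neuronal adhesion and synapses were low, with 28 of 30 below and 1 above, against 38.9% and 39.5% of all genes. Their median was -3.25 log2 RPKM. Cdh13, on chromosome 8, was the exception at 0.22, 0.14 and 0.17 over 592 tiles. The histone list, of clustered replication-dependent genes and linker histones, was also low, with 37 of 41 below. The other 4 were above: H1f8, the oocyte linker histone, at 1.43, H1f7, a spermatid linker histone, at 0.43, and the testis histones H2bc1 at 0.80 and H2ac1 at 0.71. H1f7 and H1f8 are not replication-dependent. The start-site tile of H1f8 read 2.13, 2.50 and 2.45.

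Genes that every cell uses were mixed over the narrow span. Of 81 cytosolic ribosomal protein genes 66 were below and 4 above, with a median of -1.73 log2 RPKM, and of 24 housekeeping genes 16 were below and 4 above, against 38.9% and 39.5% of all genes. With 20 kb of flank the median of the ribosomal list moved from percentile 25.5 of all genes to 48.6, and that of the housekeeping list from 30.1 to 54.8. Of 39 proteasome subunit genes 18 were above and 6 below, and of 75 mitochondrial ribosomal protein genes 32 were above and 13 below. Respiratory chain genes were split, with 31 of 96 above and 33 below. Glycolysis and one-carbon genes were higher, with 20 of 32 above and 4 below, led by Psat1 of serine synthesis at 1.65, 1.79 and 1.50. Of the 39 Hox genes 15 were above, near the share over all genes, and 6 below, from Hoxa7 at 1.72 to Hoxc12 at -1.91.

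The genome outside genes held less signal the farther it lay from a gene. Tiles in protein-coding genes exceeded tiles outside annotated genes by 1.37, 1.43 and 1.31 on the log2 scale (1.37 ± 0.06, SD, n = 3). Tiles that lie in other annotated genes alone exceeded them by 0.71, 0.81 and 0.67. The mean fell from -1.25 log2 RPKM within 2 kb of a gene to -1.70 at 2 to 10 kb, -2.22 at 10 to 50 kb, -2.91 at 50 to 100 kb and -3.28 at 100 to 200 kb. Tiles up to 10 kb from a gene exceeded those over 100 kb away by 1.72, 2.00 and 1.62. Each difference had 1 sign in 3 of 3 libraries (exact sign-flip permutation test, two-sided, p = 0.25).

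Protein-coding genes held 523294 of 1251971 kept tiles. In these tiles lay 56.6%, 57.8% and 56.4% of all reads of replicates 1, 2 and 3, where all kept tiles held 97.2%, 96.7% and 97.1%. The 10% of tiles with the most reads took 48.8%, 56.5% and 48.3% of the reads of replicates 1, 2 and 3. Among tiles of other genes, those at miRNA genes averaged -0.90 log2 RPKM, those at long noncoding RNA genes -1.46, those at pseudogenes -1.96 and those at V segments of antigen receptors -3.30.

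The X chromosome was the lowest of the chromosomes but Y. Autosomal tiles exceeded X tiles by 2.13, 1.89 and 2.10 on the log2 scale (2.04 ± 0.13, SD, n = 3; exact sign-flip permutation test, two-sided, p = 0.25). Of 903 genes on X, 856 were below the median gene and 10 above, against 38.9% and 39.5% of all genes. The number of X chromosomes in the line is not given in the sources used here, and its part in the difference was not tested. The level over X was -3.62 log2 RPKM against -2.05 on chromosome 3, the lowest autosome. On X, and chosen after values were seen, Cxcr3, a chemokine receptor (0.60), Tex13b (0.41), Rtl5 (0.37), Efnb1, an ephrin (0.17), and Hdac6, a cytoplasmic deacetylase (0.14), were the highest genes with at least 5 tiles. With 20 kb of flank the first 4 fell below the median gene.

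Chromosome 8 was the reverse case. Its tiles exceeded those of the other autosomes by 0.59, 0.53 and 0.59 on the log2 scale (0.57 ± 0.04, SD, n = 3; exact sign-flip permutation test, two-sided, p = 0.25). It ranked first of 20 chromosomes in tiles of protein-coding genes (-0.27 log2 RPKM) and also in tiles over 100 kb from any gene (-2.67). Chromosome 11 had the same overall mean as chromosome 8, -1.04, but ranked 3 of 20 in the distant tiles. Over the 19 autosomes, which differ in length and base composition, r between the mean level and the share of tiles in protein-coding genes was 0.63, and 0.74 without chromosome 8. The copy number of chromosome 8 was not measured, and it cannot be told apart from 5hmC here.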

How the data were processed

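HMCP libraries enrich DNA with 5hmC. Per the submitters' processing notes, reads were handled with Trim Galore 0.6.5, cutadapt 2.3 and Bowtie2 2.4.1 and the build was GRCm38; how reads were assigned to tiles is not given in the sources used here. The authors deposited log2 RPKM in 1362779 tiles of 2 kb. In tiles with up to 100 reads, all values lay within 0.02 reads of a whole read, an empty tile standing at 0.9 reads. The recovered reads were 2.33 to 2.35 times the total implied by the deposited RPKM, a shift alike in the 3 libraries whose cause is not known here.

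Tiles on chromosomes 1 to 19 and X were used (1316897). Left out were 63609 tiles without a read in any of 11 libraries and the 0.1% with the highest mean (1317), leaving 1251971. Start-site tiles of genes and the runs of high signal kept the latter, while the class differences did not. A gene value is the mean over its span and 2000 bp either side, with at least 3 tiles. Each gene was set against the median gene of its library with limma 3.58.1 in R 4.3.3 (1-sample fit, variance trend, Benjamini-Hochberg over 21182 genes, threshold 0.05). Tested on simulated data, it called 93.5% of genes set 1 above the median gene on the log2 scale, 66.5% set 0.5 above and 5.5% set 0. On the lower side it called 88% of genes set 1 below and 63% set 0.5 below. The simulated noise was independent between genes, whereas replicate 2 stood apart across genes. Class differences were taken within a library and tested by exact sign flips, where p cannot go below 0.25. Promoters are RefSeq's on GRCm38.p6, matched by gene for 16981 genes, with the start the table lists; the exon classes planned were not used here, since the gene table gives no exons.

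Named by rule were the 15 highest and 15 lowest protein-coding genes (at least 5 tiles, 90% of tiles kept, no predicted, olfactory or vomeronasal genes, no shared tile), the 8 highest and lowest with at least 50 tiles, the extremes of each list (2 genes so named are not reported here), and Tet1 to Tet3, Dnmt1, Dnmt3a, Dnmt3b, Nanog, Pou5f1, Sox2, Klf4 and Tbx3; other genes were picked after their values were seen. The members, lists, rule and tests were chosen with earlier results of these data known. The alternatives varied the tiles kept, scale, depth, flank, reference and libraries.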

Additional observations from a re-analysis of the deposited data

How the results depend on the processing

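The direction of each class difference held in every setting tried: no tile left out, tiles with reads at day 0, the lowest 10% of tiles left out, log2 of reads plus 1, equal depth, the median of the tiles in place of the mean, and leaving out each replicate. Protein-coding genes exceeded tiles outside genes by 1.54 with no tile left out, 1.25 without the lowest 10%, 1.28 with reads plus 1 and 1.75 with the median. Other genes did so by 0.83 with no tile left out and 0.92 with the median. The near and far tiles differed by 2.06 and 2.19 in the same settings. Autosomes exceeded X by 1.67 without the lowest 10% and 2.54 with the median, and chromosome 8 the other autosomes by 0.50 and 0.64. With the median, start-site tiles differed from the body by -1.27, and starts with 3 to 10 CG exceeded those with 0 to 2 by 2.33 and those with over 20 by 1.64.

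Genes above the median gene numbered 8372 and below it 8240. With at least 10 tiles a gene, and so fewer genes tested, the counts were 4809 and 4708, and against the median tile, a lower reference, 14152 and 4422. Leaving out a replicate gave 7632 to 8760 above and 6906 to 8576 below. The germline starts in the highest 5% numbered 13 to 17 in the settings added after seeing the data, the 13 where the highest 0.1% of tiles are left out.

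Most of the 68 named genes were picked for extreme values in these data, so their direction was largely fixed beforehand. Every change of direction or call fell on the highest genes of X or on Tet1, Tet2, Nanog, Pou5f1 or Klf4. Of 914 values of the 68 genes, 900 kept their direction and side of the threshold and 7 turned. With 20 kb of flank these were Cxcr3 (-1.08), Tex13b (-1.28), Rtl5 (-0.71), Efnb1 (-0.21), Tet1 (-0.31) and Klf4 (0.14), and with at least 10 tiles Tet1 (-0.0077); the cause was not tested. Of 46 lists, 18 moved across the median gene in at least 1 setting. Depth limits single tiles: at 4 reads a tile in replicate 2, low starts cannot be ordered. No paired analysis was possible because 1 group was described.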

Other observations

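Imprinted genes, which are expressed from the copy of one parent, were mixed. Of 26 measured, 8 were above and 8 below the median gene, against 39.5% and 38.9% of all genes, and 4 further entries of the list are not among the protein-coding genes measured. Mest, expressed from the paternal copy, was the highest with 1.22, 1.26 and 1.26 log2 RPKM, and its start-site tile read 2.72, 2.69 and 2.49. Snrpn, of the Prader-Willi region, was the lowest with -3.58, -4.04 and -3.52 over 232 tiles. All 3 libraries agreed on both sides. The start listed for Snrpn is an outlying one, and its tile held 0, 3 and 0 reads.

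Unbroken stretches of high signal were counted as runs of at least 10 tiles that each stood in the highest 10% of every library. There were 264 such runs, 255 of them touched a protein-coding gene, and 86 lay on chromosome 8, which holds 4.91% of tiles. Protein-coding genes held 523294 of 1251971 kept tiles. A run spans at least 10 tiles, and how often stretches of this length touch a gene was not counted. The runs include the tiles that gene values and class differences leave out for the highest mean. The longest, 74 kb at chr11:3126001-3200000, lies at Sfi1 and averaged 4.45, 4.65 and 4.43 log2 RPKM, above the next 5. The tiles left out elsewhere begin at a mean of 3.67 log2 RPKM, below the average of this run in every library. How many tiles of the run are among them was not counted, and read placement there was not tested. The Sfi1 run was followed by 72 kb in Zfhx3, 62 kb at Fat1, 60 kb in Cit, 56 kb in Abcc4, an efflux transporter, and 54 kb in Fto, an RNA demethylase. Zfhx3, Fat1 and Fto are on chromosome 8. Among 2498 windows of 1 Mb, 18 of the 50 highest lay on chromosome 8 and 46 of the 50 lowest on X. Chromosome 8 and X held 61847 and 75012 of the 1251971 kept tiles. The highest was chr8:48000001-49000000, which holds Dctd and part of Tenm3, with 1.64, 1.14 and 1.63. The lowest was chr14:4000001-5000000, filled with predicted genes, at -4.79, -4.39 and -4.78.

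The tiles left out for the highest mean reached 13.1 log2 RPKM, and 334 of the 1317 (25.4%) lay on chromosome 8, which holds 4.91% of tiles. The 9 mitochondrial tiles read 1.0, -1.08 and 1.54 in replicates 1, 2 and 3, with replicate 2 apart from the others. Chromosome Y tiles with reads averaged -4.91, near an empty tile.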
